A study of Mus musculus with 3 samples.

Results

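Dlk1, Grb10 and Cdkn1c are 3 imprinted genes that control growth, and their RNA was compared between mouse liver and Universal Mouse Reference RNA (UMRR) on 3 arrays. They were taken as the 7 probes whose single gene symbol in the platform annotation is one of these names, out of 16273 probes on the array and out of 7984 genes with such a probe. Dlk1 had 1 probe, Grb10 had 3 and Cdkn1c had 3, and 4 of the 7 probes gave a ratio on all 3 arrays. The genes were chosen by their measured ratios on these same arrays, Dlk1 and Grb10 as low in liver and Cdkn1c as high. Their own ratios are therefore given as a description, with no test.

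Each array compared liver total RNA, labelled with Cy5, with UMRR, labelled with Cy3. UMRR mixes RNA of mouse cell lines from several tissues and is sold as a common reference for arrays. Both RNAs were purchased, and cRNA was made from each in 1 round of amplification. The labels name a single catalogue product for each, so the 3 arrays repeat 1 pair of RNAs, and the spread between them may be technical. The strain, age, sex and number of the animals behind the liver RNA are, in the sources used here, not given. All arrays had the same dye orientation, so any dye bias is part of every ratio. In whole tissue, fewer cells of a type and less RNA per cell cannot be told apart.

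Positive ratios were read as higher in liver because 4 measured hepatocyte genes (Ambp, Apoc3, Rbp4 and Vtn) had means between 4.01 and 5.17, and these are no finding. The deposited values state neither direction nor base. Base 2 was assumed, and natural logs would multiply each log2 value by 1.44. Exact zeros, 23.5% to 32.2% of the values on an array, were read as no measured ratio. Array 1 resembled the others least: over the 5520 genes, which are not independent replicates, Pearson's r was 0.982 for arrays 2 and 3 but 0.928 and 0.939 for the pairs with array 1. The number of arrays limits the precision.

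Imprinted genes are transcribed mainly from the copy inherited from 1 parent, and several of them set how large the fetus and placenta grow. Dlk1, also called Pref-1, is a transmembrane protein with EGF-like repeats that resembles Notch ligands. It is expressed from the paternal copy, marks hepatoblasts of the fetal liver and holds back the differentiation of preadipocytes. Grb10 is an adaptor protein that binds the insulin and IGF1 receptors and dampens their signal, and outside the nervous system it is expressed mainly from the maternal copy. Cdkn1c, or p57Kip2, is a maternally expressed inhibitor of cyclin-dependent kinases that holds cells out of the division cycle. The arrays measure RNA from both parental copies together, so nothing below speaks to which copy was transcribed.

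The sequences around the starts of Dlk1 and Grb10 are shown, and no window was found for Cdkn1c. CpG dinucleotides, the sites of the methylation that marks imprinted regions, are set in capitals. Each window runs from 250 bases before to 50 bases after a start in the RefSeq promoter table (build GRCm38.p6) and is written 5′ to 3′ on the strand of the gene. The Dlk1 window lies at chr12:109452573-109452872 on the plus strand, and the first Grb10 window at chr11:12037371-12037670 on the minus strand.
Dlk1: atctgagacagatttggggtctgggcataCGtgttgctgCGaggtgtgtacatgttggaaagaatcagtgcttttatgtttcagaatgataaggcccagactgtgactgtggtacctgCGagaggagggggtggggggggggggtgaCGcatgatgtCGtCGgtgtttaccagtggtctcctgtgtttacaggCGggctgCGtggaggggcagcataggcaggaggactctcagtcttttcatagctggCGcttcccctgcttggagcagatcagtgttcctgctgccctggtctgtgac
Grb10: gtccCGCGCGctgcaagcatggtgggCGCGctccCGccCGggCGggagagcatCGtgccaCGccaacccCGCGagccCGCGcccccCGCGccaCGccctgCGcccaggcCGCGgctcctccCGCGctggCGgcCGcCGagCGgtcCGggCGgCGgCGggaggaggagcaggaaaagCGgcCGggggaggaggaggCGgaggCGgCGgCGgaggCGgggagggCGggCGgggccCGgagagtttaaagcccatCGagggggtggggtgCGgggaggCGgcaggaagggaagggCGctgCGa

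The Grb10 window held 45 CpG dinucleotides and was 80% G or C, and 1.65% of all 32851 windows in the table held more CpG. The Dlk1 window held 9 CpG and was 55.7% G or C, near the medians of all windows, which were 7 CpG and 52.7%. A second Grb10 start at chr11:12027922-12028221, also on the minus strand, held 9 CpG at 52.3% G or C. The letters GGGCGG, a GC box, were found 5 times in the first Grb10 window when both strands were read, and in neither of the other windows. They occur in 35.7% of all windows. Neither TATAAA nor CCAAT was found on either strand of the 3 windows, against 13.6% and 37.4% of all windows. The first Grb10 window thus differed from the Dlk1 window in base composition, and the second Grb10 window was close to it.

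Dlk1 was low in liver on every array. Its only probe (14656) gave log2 ratios of liver over UMRR of -2.93, -3.12 and -2.69 on arrays 1, 2 and 3. The 3 values lie close together and far below 0. Their mean was -2.91 ± 0.22 (SD, n = 3 arrays), or 7.53-fold less RNA in liver than in UMRR. Among the 5520 genes with a ratio on all arrays, 39 had a lower mean than Dlk1 (0.707%). Its rank moved between arrays, with 29, 31 and 65 genes below it on arrays 1, 2 and 3. No second probe of Dlk1 was present to set beside this one.

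Grb10 had nearly the same mean ratio as Dlk1, but its probes were not of one kind. Probe 11086 gave log2 ratios of -2.39, -2.89 and -2.78, and probe 17582 gave -2.82, -3.14 and -3.22. These 2 probes were made from the same annotated cDNA, so they are not independent measures of the gene. Averaged on each array they stood at -2.61, -3.02 and -3.00, with a mean of -2.88 ± 0.23 (SD, n = 3), or 7.34-fold less RNA in liver. Array 1 gave the ratio nearest to 0 for both probes.

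The remaining Grb10 probe (7452), from a different annotated cDNA, read much nearer to 0. Its log2 ratios were -0.13 on array 1 and -0.73 on array 2, with no measured ratio on array 3. It stood above the average of the other 2 Grb10 probes by 2.47 on array 1 and 2.29 on array 2. Over arrays 1 and 2 the highest and lowest probes of Grb10 were 2.55 apart. The median of that distance over 1432 genes with at least 2 probes was 0.37, and 1.96% of these genes had a wider distance than Grb10. With this probe let in through a setting that asks for ratios on at least 2 arrays, the Grb10 mean was -2.35, and with exact zeros kept as ratios of 1 it was -2.01. The platform annotation gives no part of the transcript for a probe, and whether the probes read different transcripts was not tested.

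Cdkn1c was the member with more RNA in liver. Probe 14151, the only Cdkn1c probe with a ratio on every array, gave log2 ratios of 1.30, 1.12 and 0.99 on arrays 1, 2 and 3. The mean was 1.14 ± 0.16 (SD, n = 3), or 2.20-fold more in liver. The ratio stayed just under 2-fold on array 3, at 1.98-fold, and lay above 2-fold on the other arrays. A second probe (7844) stood at 1.20 on array 1 and 1.18 on array 2, within 0.10 of probe 14151 on both, and had no measured ratio on array 3. The last probe (14580) stood at 0.11 on array 1 alone, 1.19 below probe 14151. Probes 7844 and 14580 name the same transcript in the annotation, so these probes disagreed on the array that measured both.

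**Figure D1:**
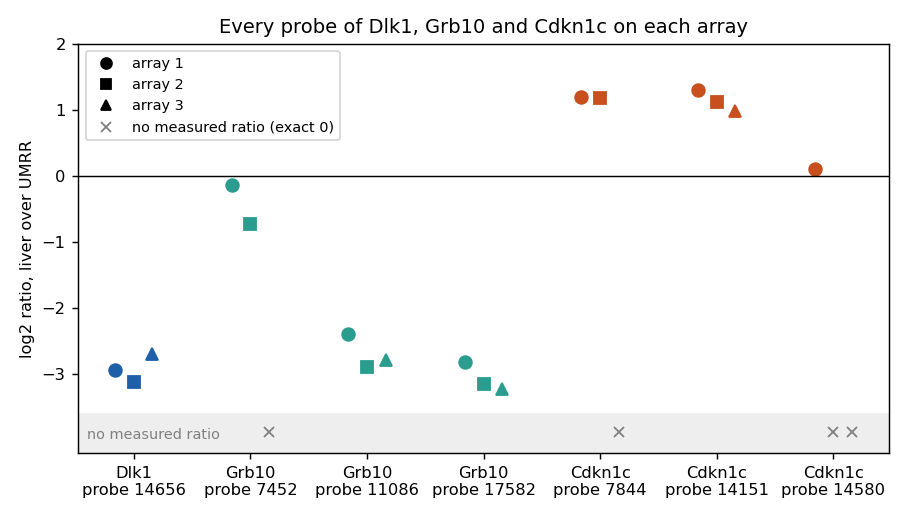
Log2 ratios of liver over UMRR (vertical axis) for each of the 7 probes, with circles, squares and triangles for arrays 1, 2 and 3 and grey crosses in the shaded strip, which has no scale, for an exact 0 read as no measured ratio. Dlk1 and 2 Grb10 probes lie between -2.39 and -3.22, Grb10 probe 7452 lies at -0.13 and -0.73, and the Cdkn1c probes lie between 0.11 and 1.30.

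The place of Cdkn1c among all genes was less extreme than that of the low pair. A higher mean was found for 553 genes, against 41 genes with a lower mean than Grb10. Of the 5520 genes, 9.53% were at least 2-fold lower in liver on every array, as Dlk1 and Grb10 were, and 9.46% were at least 2-fold higher on every array. The rule that chose the genes used these ratios, so the shares are background only.

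**Figure D2:**
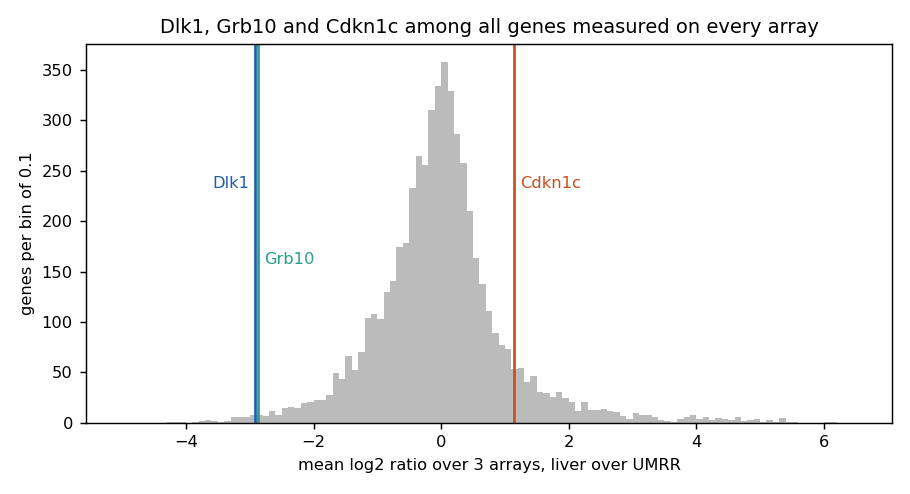
Number of genes in bins of 0.1 (vertical axis) by mean log2 ratio of liver over UMRR over 3 arrays (horizontal axis), for the 5520 genes measured on every array, with a coloured line at the mean of each member. Dlk1 at -2.91 and Grb10 at -2.88 lie in the lower tail, and Cdkn1c at 1.14 lies on the upper shoulder.

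The distance between the high gene and the low pair was steady over the arrays. Cdkn1c minus the mean of Dlk1 and Grb10, taken within each array, was 4.07, 4.19 and 3.83 on the log2 scale. It averaged 4.03 ± 0.18 (SD, n = 3), which is a 16.3-fold difference between ratios, and centring an array cannot change it. The difference was 3.76 with ratios on at least 2 arrays and 3.12 with exact zeros kept as ratios of 1. Cdkn1c lay above Dlk1 by 4.23, 4.24 and 3.67, and above Grb10 by 3.91, 4.14 and 3.99. Dlk1 and Grb10 were not told apart: Grb10 minus Dlk1 was 0.33, 0.099 and -0.31, so their order turned on array 3.

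Genes whose 3 ratios came closest to those of each member were found by the Euclidean distance between log2 ratios over the 3 arrays, with the 5 nearest of 5520 taken. The likeness is over 3 arrays of 1 RNA pair, so it mostly restates a similar mean. Nearest to Dlk1 were Lamb1 (distance 0.197), a laminin chain, Stmn2 (0.202), a microtubule regulator of neurons, Anxa3 (0.266), an annexin, Lgals3 (0.333), a galectin, and Thbs2 (0.341), a thrombospondin. Nearest to Grb10 were Aldh18a1 (0.114), an enzyme of proline synthesis, Atg9b (0.184), an autophagy gene, and Racgap1 (0.214), Pttg1 (0.220) and Trip13 (0.249), which act in cell division. Within a distance of 0.5 lay 19 genes for Dlk1, 28 for Grb10 and 226 for Cdkn1c. Cdkn1c thus sat in a much more crowded range of ratios. Its nearest genes were Echdc1 (0.0686) and Eci1 (0.119), enzymes of acyl-CoA metabolism, A930005H10Rik (0.107), Snap47 (0.127), a SNARE protein, and Sgms2 (0.142), a sphingomyelin synthase.

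The other imprinted genes on the array showed no common direction. Apart from the 3 members, 25 of 64 listed genes had a probe and 17 had a ratio on all arrays. In the limma fit across all genes (Benjamini-Hochberg adjusted p, threshold 0.05), 5 of these 17 were higher in liver, 6 were lower and 6 did not pass. That is 64.7% past the test, beside 64.0% of all genes tested (30.1% higher and 33.9% lower), so the share called was near the background. Their median log2 ratio was -0.091, beside -0.028 over all genes. None of the 17 had a mean below that of Grb10, and 2 had a mean above that of Cdkn1c (1.135). These 2 were Snrpn at 1.47 and Pon2 at 1.141, which was nearly level with Cdkn1c. Grb10 was chosen as low and Cdkn1c as high, so these places are only a description. Many of the listed genes are imprinted only in some tissues, such as placenta or brain.

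Among paternally expressed genes, 5 besides Dlk1 were measured, with 3 higher in liver, 1 lower and 1 not past the test. Snrpn, a protein of the splicing machinery, stood at 1.25, 1.47 and 1.68 (adjusted p = 8.82e-05 in the limma fit), well clear of 0 on each array. A second Snrpn probe stood lower, at 0.63 and 0.46 on arrays 1 and 2, and with that probe let in the Snrpn mean was 1.19. Airn, the noncoding RNA that silences Igf2r, stood at -0.25, -1.08 and -0.98 (limma adjusted p = 0.00871). Ins2, an insulin gene, stood at 0.055, 1.19 and 0.96 (limma adjusted p = 0.0248), and on array 1 it was close to 0. Mcts2, a retrogene, stood at 0.65, 0.22 and 0.41 (limma adjusted p = 0.0173). Ndn, or necdin, which restrains growth in neurons, stood at 0.060, -0.58 and -0.36 and did not pass (limma adjusted p = 0.109). Without array 3, 2 of these 5 genes passed in place of 4, since Ins2 (adjusted p = 0.0702) and Mcts2 (adjusted p = 0.0842) were lost. Ins2 was also lost without array 2 (adjusted p = 0.0882), and Ndn passed without array 1 (-0.47, adjusted p = 0.00184).

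Among maternally expressed genes, 12 besides Grb10 and Cdkn1c were measured, with 2 higher in liver, 5 lower and 5 not past the test. Pon2 and Pon3, paraoxonases that hydrolyse lactones, were the higher ones. Pon2 stood at 1.10, 1.06 and 1.27, and Pon3 at 0.59, 1.13 and 1.53. Tspan32, a tetraspanin of blood cells, was the lowest after Grb10 at -1.75, -2.08 and -1.92 (limma adjusted p = 2.20e-05). Its probes disagreed, since a second one stood at 0.20 and 0.029 on arrays 1 and 2, and with that probe let in the Tspan32 mean was -1.24. Gnas, the stimulatory G protein subunit, stood at -0.72, -1.22 and -1.11. Gatm, an enzyme of creatine synthesis, stood at -0.58 ± 0.028, Cd81, a tetraspanin, at -0.55 ± 0.20 and Ube3a, a ubiquitin ligase, at -0.43 ± 0.15 (SD, n = 3). These last 3 were lower past the test, each by less than 2-fold. Meg3, the noncoding RNA made from the same imprinted region as Dlk1, stood at -0.091 ± 0.086 and did not pass (limma adjusted p = 0.427). Its probes disagreed in sign, with 1 at -0.62, -0.42 and -0.41 and another at 0.25, 0.30 and 0.37. Rian (0.23 ± 0.069) and Mirg (-0.24 ± 0.49), noncoding RNAs of that region, did not pass either, nor did Nap1l4 (0.36 ± 0.29, limma adjusted p = 0.0506, and 0.0407 without array 2) and Ppp1r9a (-0.067 ± 0.010).

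**Figure D3:**
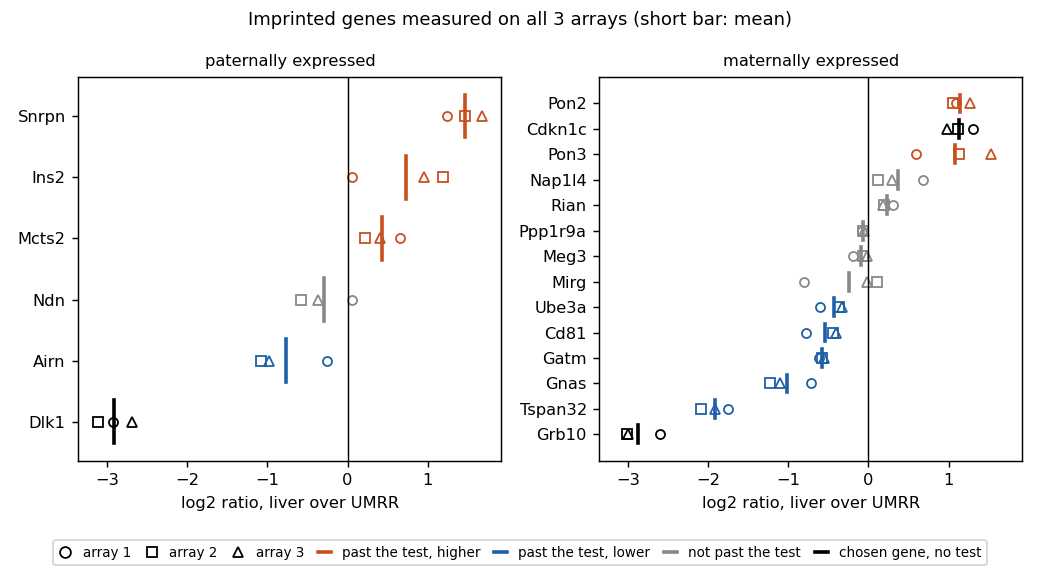
Log2 ratios of liver over UMRR (horizontal axis) of paternally (left) and maternally (right) expressed imprinted genes measured on all 3 arrays, with a symbol per array and a short bar at the mean. Orange and blue mark genes higher and lower in liver past the limma test, and grey marks genes not past it. Black marks the 3 chosen genes, which have no test here. Dlk1 and Grb10, chosen as low, lie below all other genes of their panels.

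With exact zeros kept as ratios of 1, 6 of the 11 called imprinted genes lost their call (Airn, Cd81, Ins2, Mcts2, Pon3 and Ube3a), and 7 did without moderation of the variance (the same 6 and Gnas). Ppp1r9a gained a call in both settings, and Rian with zeros kept. Calls over all genes fell as well, from 3535 of 5520 to 2391 of 7984 with zeros kept and to 2087 of 5520 without moderation. Further imprinted genes had a ratio on 1 array only. Slc38a4, an amino acid transporter, stood at 5.69 on array 2, Peg3, a zinc finger protein, at 1.11 on array 2, and Slc22a18, a transporter next to Cdkn1c in the same imprinted region, at 2.86 on array 3. H19, a noncoding RNA of growth control, stood at -1.53 on array 2. The probes of Ddc, Sgce, Asb4 and Ascl2 were at an exact 0 on all arrays. Single values have no replicate check.

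Around Dlk1, a list of genes of Notch signalling held 4 other measured members, of which 2 were higher in liver, 1 was lower and 1 did not pass. Over all genes 64.0% were called, and with so few members the count says little. Their median was 0.39. Adam10, a protease that sheds Notch and its ligands, stood at -1.43, -1.45 and -1.40, the same on all arrays to within 0.1. Psenen, a subunit of the gamma-secretase that cleaves Notch, stood at 0.84 ± 0.11 (SD, n = 3) over 3 probes. Notch1, a receptor, stood at 0.38, 0.74 and 0.74. Its call was lost without moderation of the variance (adjusted p = 0.0717) and with exact zeros kept (adjusted p = 0.0533). Psen2, of the gamma-secretase, did not pass, at 0.15 ± 0.10, and did so by a little without array 1 (0.21, adjusted p = 0.0496). Dlk1, which was chosen as low, lay below each of these 4 genes on each array.

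Around Grb10, 20 other genes of insulin and IGF signalling were measured. Past the test were 6 higher in liver and 6 lower, while 8 missed it, and their median was -0.0083. These shares are close to those of all genes, of which 64.0% were called (30.1% higher and 33.9% lower). Without moderation of the variance, 7 of the 20 passed in place of 12, and over all 5520 genes 2087 passed in place of 3535. Igf1r, the IGF1 receptor that Grb10 binds, was lower at -2.41, -1.90 and -1.35 (limma adjusted p = 0.000288), though not without moderation (adjusted p = 0.0594). Among proteins that bind IGFs in the extracellular space, Igfbp6 was lower at -2.77, -2.43 and -2.60, and Igfbp2 was higher at 1.84, 2.36 and 2.41. Members of the Grb10 family were measured in part. One probe of Grb14, an adaptor of the insulin receptor, stood at 2.37 and 2.11 on arrays 1 and 2, and another at 1.94 on array 3 alone, while the last of its 3 probes had no ratio. These values lie on the opposite side of 0 from Grb10, but no Grb14 probe gave a ratio on all arrays. The probe of Grb7 was at an exact 0 on each array.

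Around Cdkn1c, 1 other inhibitor of cyclin-dependent kinases was measured on all arrays, and it lay on the other side of 0. Cdkn2c, or p18, which blocks Cdk4 and Cdk6, stood at -2.18, -2.45 and -2.33 over 2 probes (limma adjusted p = 8.90e-06), or 4.99-fold lower in liver. Cdkn1a, or p21, of the same Cip/Kip family as Cdkn1c, stood at -1.12 and -1.26 on arrays 2 and 3 and had no ratio on array 1. Cdkn1b, or p27, was at an exact 0 on all arrays. Cdkn1c, by probe 14151, was the 1 inhibitor of the list with a ratio above 0 on all arrays, among 3 with any ratio. It was chosen as high, so this is only a description.

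The kinases and cyclins that such inhibitors act on, with their partners, were mostly lower in liver. Of 17 measured genes 13 were lower, 2 were higher and 2 missed the threshold, and their median was -1.60. The background for this count is 33.9% of all genes lower and 30.1% higher, and the median over all genes was -0.028. Cdk1, the mitotic kinase, stood at -3.94, -4.33 and -4.16, Ccna2 (cyclin A2) at -3.00, -2.82 and -2.95, and Ccnb2 (cyclin B2) at -2.51 ± 0.18 (SD, n = 3). Rbl1, a relative of the retinoblastoma protein, stood at -2.30 ± 0.30. Its 2 probes differed in size, with means of -1.28 and -3.32. The higher genes were E2f4, a repressor among the E2F factors, at 0.67 ± 0.083, and Ccnd3 (cyclin D3) at 0.59 ± 0.035. The Ccnd3 probes disagreed, with 1 at -0.94, -0.53 and -0.85 and another at 1.52, 1.25 and 1.34, and its call was lost with exact zeros kept (adjusted p = 0.128). On each array Dlk1 and Grb10 had ratios in the range of these cell cycle genes, and Cdkn1c lay above all 17 with probes averaged. With the median probe in place of the average, Ccnd3 stood at 1.16, level with Cdkn1c at 1.14. Cdkn1c was chosen as high, so its place here is only a description.

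**Figure D4:**
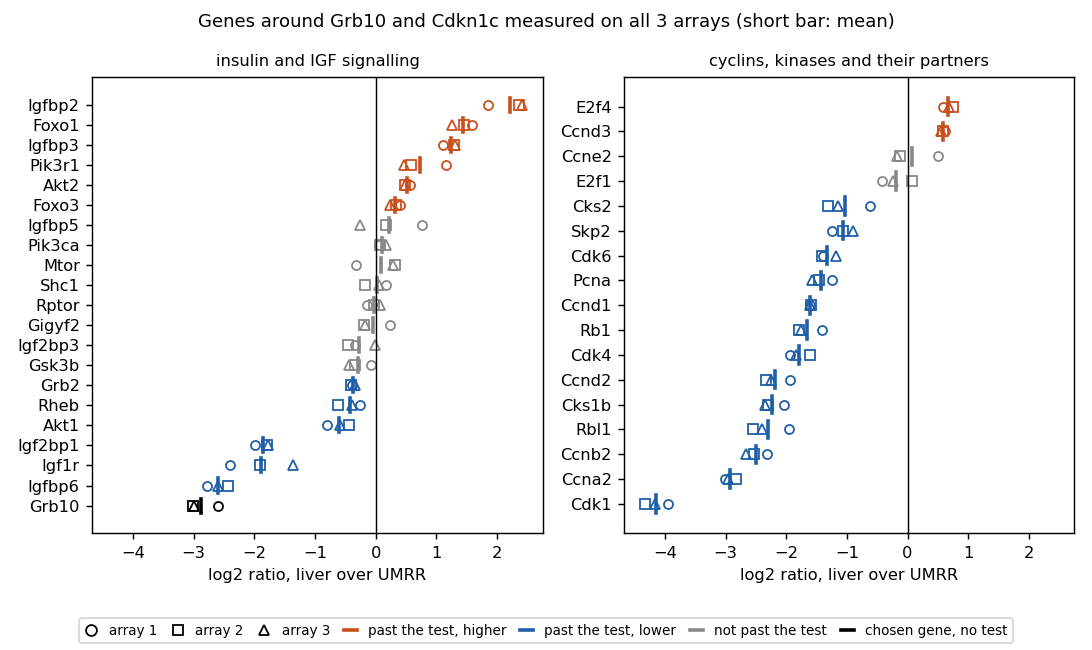
Log2 ratios of liver over UMRR (horizontal axis) of genes of insulin and IGF signalling (left) and of cyclins, kinases and their partners (right) measured on all 3 arrays, with a symbol per array and a short bar at the mean, coloured as past the test and higher (orange), past the test and lower (blue), not past it (grey) or chosen with no test (black). Grb10, chosen as low, has the lowest mean on the left at -2.88 by its probes measured on all 3 arrays. With ratios on at least 2 arrays Igfbp6 (-2.60) lay below Grb10 (-2.35). On the right 13 of 17 genes are lower in liver.

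Of 7 measured fetal liver genes besides Dlk1, 3 were lower in liver, 2 were higher and 2 missed the threshold, and their median was -0.27. Beside the 64.0% of all genes called (30.1% higher and 33.9% lower), this count is near the background. Sox11, a transcription factor of embryonic tissues, stood at -3.02, -3.38 and -3.10, close to Dlk1. Igf2bp1, a fetal RNA-binding protein, stood at -1.98, -1.79 and -1.78, and Sox9, a factor of bile duct progenitors, was lower at -1.28 ± 0.39 (SD, n = 3). Hbb-bh1, an embryonic globin, went the other way at 2.31, 3.46 and 3.49, and globin probes can take up RNA of related globins. Cpm, a carboxypeptidase, was higher at 0.32 ± 0.10, a call that needed both array 2 and array 3 (limma adjusted p of 0.169 and 0.180 when either was left out). Where exact zeros were kept as ratios of 1, the test called 2 of the 13 genes besides Dlk1, both of them lower, and Sox11 (adjusted p = 0.109) and Hbb-bh1 (adjusted p = 0.0765) were lost. In that setting 2391 of all 7984 genes were called. Sox9 was lost without moderation (adjusted p = 0.0654). Hmga2, a chromatin protein of fetal tissues, stood at -2.75 on array 2 alone. Afp, the fetal counterpart of albumin, was chosen, like Hmga2, after its values were seen. It stood at -0.60 and -1.08 on arrays 1 and 2 for 1 probe and at -1.15 on array 3 for another. H19 was also below 0, at -1.53 on array 2 alone. The rest of the partly measured genes of the list went the other way. Hbb-y, another globin, stood at 2.56 and 3.50 on arrays 1 and 3. Lin28b stood at 0.71 and 0.19 on arrays 2 and 3, and Peg3 at 1.11 on array 2 alone.

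Markers of cell types that the liver RNA could hold moved in the same comparison. The background for these counts is 30.1% of all genes higher in liver and 33.9% lower. For lists with only a few measured genes the count says little. Of 24 acinar genes of the pancreas, 14 were measured and 13 were higher in liver, and their mean log2 ratio lay between 3.33 and 3.69 over the arrays. Of 11 islet genes 3 were measured and all were higher, with means between 0.756 and 0.840, and Ins2 is 1 of them. Of 11 erythroid genes 6 were measured and 4 were higher, with means between 2.57 and 3.14. Endothelial genes were measured for 2 of 11, with 1 higher (Eng, 1.63 ± 0.35, SD, n = 3), and stellate and fibroblast genes for 4 of 11, with 2 higher and 1 lower. Slc40a1, the 1 measured Kupffer gene, was higher at 4.13, 3.91 and 3.95, and Sox9 was the 1 measured bile duct gene. The part of these cells in the ratios of Dlk1, Grb10 and Cdkn1c was not tested.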

How the data were processed

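The authors deposited a signed number for each probe on each array, taken here as a log2 ratio of liver over UMRR. How they scanned, corrected for background, normalized the dyes and took logs is, like the genome build, not given in the sources used here. The deposited median was 0 on each array. Probes were named from the platform annotation (12336 with 1 symbol, 61 with several, 3876 with none), and 12228 of the 12336 matched the RefSeq gene table (GRCm38.p6, used for names and gene order) with 0 symbols changed. Probes with a ratio on all 3 arrays (9910) were averaged per gene and array, which gave 5520 genes. The mean ratio of each gene was tested two-sided against 0 with limma 3.58.1 (lmFit, eBayes; R 4.3.3) and Benjamini-Hochberg adjustment, in a script also tested on simulated data. The p-values weigh the mean ratio against the spread between 3 arrays of 1 RNA pair, moderated across genes. They do not cover variation between animals. The members and the gene lists were chosen with earlier results of these data known. Genes were named by rule: all measured imprinted genes, in each other list the 4 called members farthest from 0, and the called member furthest against its list's median. Relatives of the members and the 5 nearest genes were added. Fetal and cyclin genes beyond the rule were named after their values were seen. The alternatives were array left out, centring, scaling, ratios on at least 2 arrays, zeros kept, the median probe and other test settings.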

Additional observations from a re-analysis of the deposited data

How the results depend on the processing

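Without arrays 1, 2 or 3 in turn the mean log2 ratio ranged from -3.02 to -2.81 for Dlk1, from -3.01 to -2.80 for Grb10, from 1.05 to 1.21 for Cdkn1c and from 3.95 to 4.13 for Cdkn1c minus the mean of the low pair. The counts past the test ranged from 2755 to 4004 for all genes, from 3 to 6 for paternally and from 9 to 10 for maternally expressed genes, from 4 to 5 for Notch, from 10 to 15 for insulin and IGF and from 5 to 6 for fetal liver genes, and it was 15 each time for cyclins and kinases. The counts of lists in this part include the members on them, whose passing is no test. Centring, scaling and the median probe moved no member by more than its SD. With ratios on at least 2 arrays Grb10 stood at -2.35 and the difference at 3.76, since probe 7452 entered. With exact zeros kept as ratios of 1, Grb10 stood at -2.01, Cdkn1c at 0.656 and the difference at 3.12. More genes then entered the test, and 2391 of 7984 passed. Among them were 2 of 10 paternally expressed, 1 of 4 kinase inhibitor and 3 of 14 fetal liver genes. Without moderation 2087 genes passed, with 2 paternally expressed and 8 insulin and IGF genes. At a threshold of 0.01, which can only lower every count, 3 of 6 paternally expressed genes passed. Against a 2-fold difference 816 genes passed, with 2 paternally expressed, 2 maternally expressed, 2 Notch, 6 insulin and IGF and 1 kinase inhibitor gene. Grb2 turned from -0.38 to 0.196 (adjusted p = 0.401) with ratios on at least 2 arrays and to 0.253 (adjusted p = 0.458) with zeros kept, as a second probe entered. Of 63 list genes besides the members, 15 lost their call with the direction kept where zeros were kept, 16 without moderation, 25 against a 2-fold difference, 7 at 0.01, 5 without array 2 and 6 without array 3, and 4 gained one without array 1. No paired analysis was possible because the 3 arrays form 1 group. The SDs cover 3 arrays of 1 RNA pair, and signal over background could not be read from ratios.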

Other observations

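The measured genes nearest to each member on its chromosome were set beside it, by gene order alone in the RefSeq table. These genes were looked at after the ratios of the members were known. On chromosome 12 the nearest measured genes after Dlk1 were Meg3 (-0.091 ± 0.086, SD, n = 3), 6430411K18Rik (0.21 ± 0.058) and Rian (0.23 ± 0.069), with 2, 4 and 5 genes of the table in between. On the other side the nearest was 4933406K04Rik (-0.10 ± 0.059), with 33 genes in between. Beyond it lay Gskip (-0.20 ± 0.15) and Tunar (0.59 ± 0.26), with 48 and 57 genes in between. Tunar was higher in liver past the limma test (adjusted p = 0.00642), and the others did not pass. Dlk1 itself stood at -2.91, and no gene directly beside Dlk1 was measured.

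On chromosome 11 the gene directly beside Grb10, 1700042O10Rik, stood at -0.28 ± 0.12 (limma adjusted p = 0.0466), and Zpbp, a sperm protein, at -0.48 ± 0.31. Farther on that side, with 25 genes in between, Igfbp3 stood at 1.24 ± 0.11 (limma adjusted p = 8.63e-05). On the other side, 1700046C09Rik stood at 0.14 ± 0.35, Pom121l12 at 0.42 ± 0.15 and Sec61g, a subunit of the translocon, at -0.35 ± 0.17, with 7, 8 and 10 genes in between. Grb10, chosen as low, had the lowest ratio of these genes at -2.88, by its probes measured on all 3 arrays. Its probe 7452, at -0.13 and -0.73 on arrays 1 and 2, lay within their range.

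On chromosome 7 the measured genes around Cdkn1c went both ways. On one side lay 4933417O13Rik (0.14 ± 0.055), Cd81 (-0.55 ± 0.20) and Tspan32 (-1.92 ± 0.17). On the other lay Nap1l4 (0.36 ± 0.29), Fadd (0.57 ± 0.099), an adaptor of death receptors, and Fgf15 (-0.053 ± 0.12). Cdkn1c, chosen as high, had the highest ratio of these genes. Tspan32, from the same imprinted region, had the lowest by its probe measured on all 3 arrays. Slc22a18, also of that region, had a ratio on array 3 alone, at 2.86, where Cdkn1c stood at 0.99.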
